A study of Mus musculus with 12 samples.

Results

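Gene expression in YAP1-FAM118B tumours of the mouse brain was compared with that in naive cortex across all genes, using bulk RNA sequencing. The 6 libraries compared, 3 per group, were those titled YAP1-FAM118B and naive among the 12 libraries of the series. The tumours had been raised by injecting an RCAS virus, an avian retroviral vector that carries a gene into cells of a living mouse, into the brain. The virus expressed YAP1 joined to FAM118B. The naive group was normal cortex that had received no injection, so effects of the fusion, of the virus and of the injection cannot be told apart in this comparison. RCAS enters only cells that carry its avian receptor, TVA. Which promoter drove that receptor, the mouse strain, the age and the injected site are unknown here, since the sources used here do not give them. The tumours were sampled whole, so that host cells within them were sequenced too.

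YAP1 is the co-activator at the end of the Hippo pathway. Kinases of the LATS family, activated by those of the MST family, phosphorylate YAP1 and its relative TAZ (gene Wwtr1) and keep them out of the nucleus. When that restraint is off, both bind the TEAD transcription factors and switch on genes of growth, adhesion and matrix. FAM118B is a protein of Cajal bodies, nuclear structures in which RNA-processing factors gather. Fusions of YAP1 are known from ependymomas of the cerebral hemispheres in children.

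Total counts were 23208012, 22554754 and 21017343 in YAP1-FAM118B replicates 1, 2 and 3, against 24760814, 23050062 and 21247000 in naive replicates 1, 2 and 3. Values below keep that order of replicates and are in CPM, the count of a gene relative to the scaled size of its library. CPM is not corrected for gene length. A count of 3 in a single library was worth 0.123 to 0.138 CPM. Whether replicates are separate animals is not stated in the labels. The p-values therefore cover only the spread among libraries, part of which may be technical. In the main fit that spread was estimated from all 12 libraries of the 4 groups, not only from the 6 compared. The labels contradict themselves in 2 places. For naive libraries one field gives tumour tissue and another normal cortex, and RNA extraction is described for cell cultures while the study design speaks of tumours frozen whole.

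In each group 1 library stood apart. YAP1-FAM118B replicate 2 lay closer to naive cortex than the other tumours did, with correlations of log2 CPM across genes of 0.893 to 0.909 with the naive libraries, against 0.812 to 0.847 for replicates 1 and 3. Naive replicate 3 held genes of deep brain regions. Its summed level of 10 choroid plexus genes was 1779 CPM, against 20.1 and 98.2 CPM in naive replicates 1 and 2. Its 14 cortical projection neuron genes summed to 3396 CPM, against 7075 and 6428 CPM in the same 2 libraries. Replicate 2 of both groups also held counts of Xist, the RNA of the inactive X chromosome, together with counts of the Y-linked Ddx3y. These were 162 CPM of Xist and 29.9 CPM of Ddx3y in YAP1-FAM118B replicate 2, and 25.6 and 49.4 CPM in naive replicate 2. YAP1-FAM118B replicate 1 held 320 CPM of Xist and 0 CPM of Ddx3y, and YAP1-FAM118B replicate 3 held 0 and 81.57 CPM. Naive replicate 1 held 0.041 and 62.85 CPM, and naive replicate 3 held 304.7 and 0.044 CPM. In each group replicates 1 and 3 thus held the counts of opposite sexes and were not from the same animal.

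More genes were called higher than lower in the tumours, by a margin that depended on the fit. A gene was called where the quasi-likelihood test of edgeR gave a Benjamini-Hochberg adjusted p under 0.05 over the 16364 genes tested. In all 4861 genes were called, 29.7% of those tested, with 3479 higher (21.3%) and 1382 lower (8.45%). The higher genes had a median log2 fold change of 1.84 and the lower ones −0.71, against −0.05 over all genes tested. A change of at least 16-fold was fitted for 676 higher and 30 lower genes. DESeq2 called 6681 genes and moved the split to 3783 higher and 2898 lower. The fit of only the 6 libraries compared gave 3728 higher and 2916 lower. Regardless of calls, 4853 genes (29.7% of those tested) were higher in every tumour than in any naive library, and 4430 (27.1%) were lower. Without YAP1-FAM118B replicate 1 or 3 the lower calls dropped to 405 and 356, and without naive replicate 1 to 415. They were 740 without naive replicate 2, 726 without naive replicate 3 and 1850 without YAP1-FAM118B replicate 2. Leaving out YAP1-FAM118B replicate 2 together with naive replicate 2 left 2965 higher and 1224 lower genes. No called gene changed its direction under any of these settings.

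**Figure D1:**
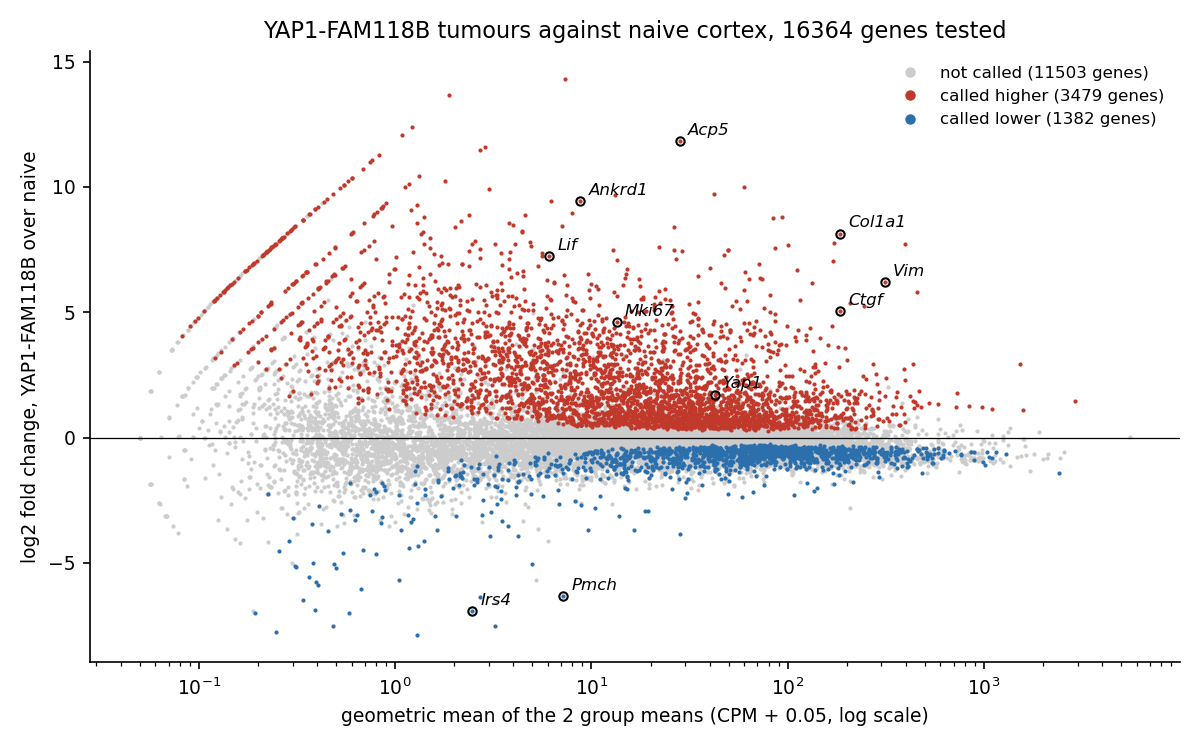
Log2 fold change of YAP1-FAM118B over naive (vertical axis) against the geometric mean of the 2 group means in CPM plus 0.05 (horizontal axis, log scale) for the 16364 genes tested. Red points are the 3479 genes called higher, blue the 1382 called lower and grey the rest; higher genes reach much larger fold changes, and diagonal lines on the left are genes with few or no naive counts, whose fitted fold change depends on the prior count.

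The tumour libraries did not move evenly. YAP1-FAM118B replicate 2 was the lowest tumour library for 2675 of the 3479 higher genes, and the highest for 1193 of the 1382 lower genes. Among the higher genes 1558 lay within 1.5-fold across the 3 tumours. In 520 replicate 2 was under 0.5 times both other tumours, and in 72 it was under 0.1 times both. Replicate 3 was under 0.5 times both others in 88 genes and replicate 1 in 7.

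Yap1 (chromosome 9, 7931999 to 8004638, GRCm38) was at 72.8, 58.5 and 98.8 CPM in the tumours, against 24.3, 23.6 and 22.3 CPM in naive cortex. All 3 tumours were above all naive libraries, with a log2 fold change of 1.71 ± 0.27 (SE; edgeR adjusted p = 0.00107). Fam118b (chromosome 9, 35216965 to 35267875) was at 44.8, 31.4 and 59.1 CPM in the tumours, against 14.9, 20.02 and 15.4 CPM in naive cortex, and also rose (edgeR adjusted p = 0.00280). Whether reads of the viral transcript were counted on the mouse genes was not tested. Of 23 genes of the Hippo pathway 12 were higher and 0 lower, with a median log2 fold change of 1.23. DESeq2 called 3 of them lower and scaling by RLE factors 1. The partners of YAP1 were among the higher genes. TAZ (Wwtr1) was at 62.1, 49.3 and 95.4 CPM in the tumours, against 14.4, 17.5 and 19.1 CPM in naive cortex. Tead1, which brings YAP1 to DNA, was at 115, 102 and 168 CPM in the tumours, against 20.5, 22.2 and 28 CPM in naive cortex. These correspond to log2 fold changes of 2.02 ± 0.26 and 2.44 ± 0.32 (edgeR adjusted p = 3.21e-04 and 3.56e-04).

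Tead2 and Tead3 rose by 2.68 and 3.01 on the log2 scale, and Vgll4, a co-factor that competes with YAP1 for TEAD, rose by 1.46 (edgeR adjusted p = 0.00352, 0.00233 and 4.05e-04). Vgll3, another TEAD co-factor, was at 101, 95.3 and 159.9 CPM in the tumours, against 5.95, 5.36 and 3.87 CPM in naive cortex. It rose by 4.55 ± 0.37 in log2 units (edgeR adjusted p = 3.11e-05), and every tumour library exceeded every naive one by more than 10-fold. Sav1, the scaffold of the MST kinases, rose by 1.28 (edgeR adjusted p = 0.00380). Lats1, a kinase that restrains YAP1, was not called. It stood at 57, 55.5 and 71.5 CPM in the tumours, against 39.9, 40.3 and 49.9 CPM in naive cortex (edgeR adjusted p = 0.0519). The edgeR adjusted p was 0.0491 when YAP1-FAM118B replicate 2 was left out and 0.0488 when naive replicate 3 was. It rose to as much as 0.194 when 1 other library was left out. Nf2, the upstream tumour suppressor merlin, was at 127, 136 and 139 CPM in the tumours, against 115, 109.6 and 105 CPM in naive cortex, and was not called (edgeR adjusted p = 0.103).

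Target genes of YAP1 and TEAD rose in 15 of 22 cases and fell in none, with a median log2 fold change of 1.57. Their summed level was 3691, 2556 and 4908 CPM in the tumours, against 946, 950.2 and 959 CPM in naive cortex. The count was 12 to 15 when 1 library was left out, and the fit of only the 6 libraries compared called 1 member lower. Ankrd1, a muscle ankyrin repeat protein and a classic YAP1 target, had the largest fold change of the list. It was at 230.2, 149 and 274 CPM in the tumours, against 0.657, 0.126 and 0.132 CPM in naive cortex, with a log2 fold change of 9.44 ± 0.89 (edgeR adjusted p = 6.54e-05). The matricellular factors Ctgf and Cyr61 rose too. Ctgf was at 1055, 457 and 1661 CPM in the tumours, against 40.5, 35.4 and 20.9 CPM in naive cortex (edgeR adjusted p = 0.00441). Cyr61 was at 365, 262 and 406 CPM in the tumours, against 12.3, 20.4 and 8.05 CPM in naive cortex (edgeR adjusted p = 2.14e-04). In all 3 genes replicate 2 was the lowest tumour, and the lowest tumour still lay over 10-fold above the highest naive library.

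Amotl2, an angiomotin that binds YAP1, was at 283, 226 and 393 CPM in the tumours, against 19.9, 24.4 and 34.7 CPM in naive cortex. The receptor tyrosine kinase Axl was at 367, 208 and 491 CPM in the tumours, against 55.7, 61 and 53.1 CPM in naive cortex. Both rose, by 3.51 ± 0.29 and 2.65 ± 0.28 in log2 units (edgeR adjusted p = 3.34e-05 and 1.19e-04). The membrane repair protein Myof rose by 4.73, the kinase Nuak2 by 3.85 and the growth factor binding protein Igfbp3 by 3.10 (edgeR adjusted p = 1.21e-04, 3.63e-04 and 1.49e-04). Lats2, a kinase of the pathway that is itself a YAP1 target, rose by 1.46 (edgeR adjusted p = 0.00333). The 7 members not called were Asap1, Crim1, Fjx1, Foxf2, Dock5, Arhgef17 and Rbms3, of which Dock5 passed without YAP1-FAM118B replicate 2 (edgeR adjusted p = 0.0401). With 1 other library left out, the edgeR adjusted p of Dock5 rose to as much as 0.4215.

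TEAD factors are known to bind the sequence GGAATG, which reads CATTCC on the other strand. The 250 bases before a transcript start of 3 called targets and of Yap1 itself are shown because each holds this motif, in capitals, on one strand or the other. They are written on the strand of the gene, from RefSeq, build GRCm38.p6. The start is the 1 transcript start per entry that the RefSeq promoter windows use. For Ankrd1 and Cyr61 it is the end of the annotated gene span, while for Amotl2 and Yap1 it lies inside that span, which goes on further upstream.
Ankrd1, chr19:36119845-36120094, minus strand: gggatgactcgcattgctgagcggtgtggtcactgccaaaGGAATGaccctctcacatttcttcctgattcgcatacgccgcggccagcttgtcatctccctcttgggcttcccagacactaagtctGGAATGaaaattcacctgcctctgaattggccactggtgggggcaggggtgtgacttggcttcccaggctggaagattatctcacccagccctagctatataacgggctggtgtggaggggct
Cyr61 (RefSeq name Ccn1), chr3:145649986-145650235, minus strand: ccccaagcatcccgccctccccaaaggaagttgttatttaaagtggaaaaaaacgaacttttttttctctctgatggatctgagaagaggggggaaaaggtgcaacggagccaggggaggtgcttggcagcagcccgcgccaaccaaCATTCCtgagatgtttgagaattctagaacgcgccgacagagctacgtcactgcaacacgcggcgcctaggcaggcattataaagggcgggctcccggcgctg
Amotl2, chr9:102717554-102717803, plus strand: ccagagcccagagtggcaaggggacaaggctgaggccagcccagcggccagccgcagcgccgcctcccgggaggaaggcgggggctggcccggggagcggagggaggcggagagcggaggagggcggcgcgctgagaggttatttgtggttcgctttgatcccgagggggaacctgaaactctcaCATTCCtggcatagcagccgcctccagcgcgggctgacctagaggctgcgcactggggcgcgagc
Yap1, chr9:8004597-8004846, minus strand: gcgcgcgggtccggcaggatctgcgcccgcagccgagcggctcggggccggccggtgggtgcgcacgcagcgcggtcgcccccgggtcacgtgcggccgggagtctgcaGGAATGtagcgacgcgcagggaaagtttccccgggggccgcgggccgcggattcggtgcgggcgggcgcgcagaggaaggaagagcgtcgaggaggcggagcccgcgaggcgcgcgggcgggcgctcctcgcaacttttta
Counted from that transcript start, Ankrd1 held the motif 210 and 123 bases before it, Cyr61 103, Amotl2 65 and Yap1 141 bases before it. The motif of Amotl2 thus lies within the annotated span of the gene. Of the 15 called targets 12 had a promoter entry, and 5 of these held the motif on either strand in the 250 bases, which are Ankrd1, Cyr61, Amotl2, Axl and Ptpn14. Of all 32851 promoter entries 12.6% held it. Counted by gene, it was held by 13.3% of the 12289 tested genes with an entry. Among the 2625 genes called higher with an entry it was 14.6%. Of the 3 targets not called that had an entry, 1 held it, Crim1. A match describes the letters of the window and not the binding of a factor, which was not measured.

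**Figure D2:**
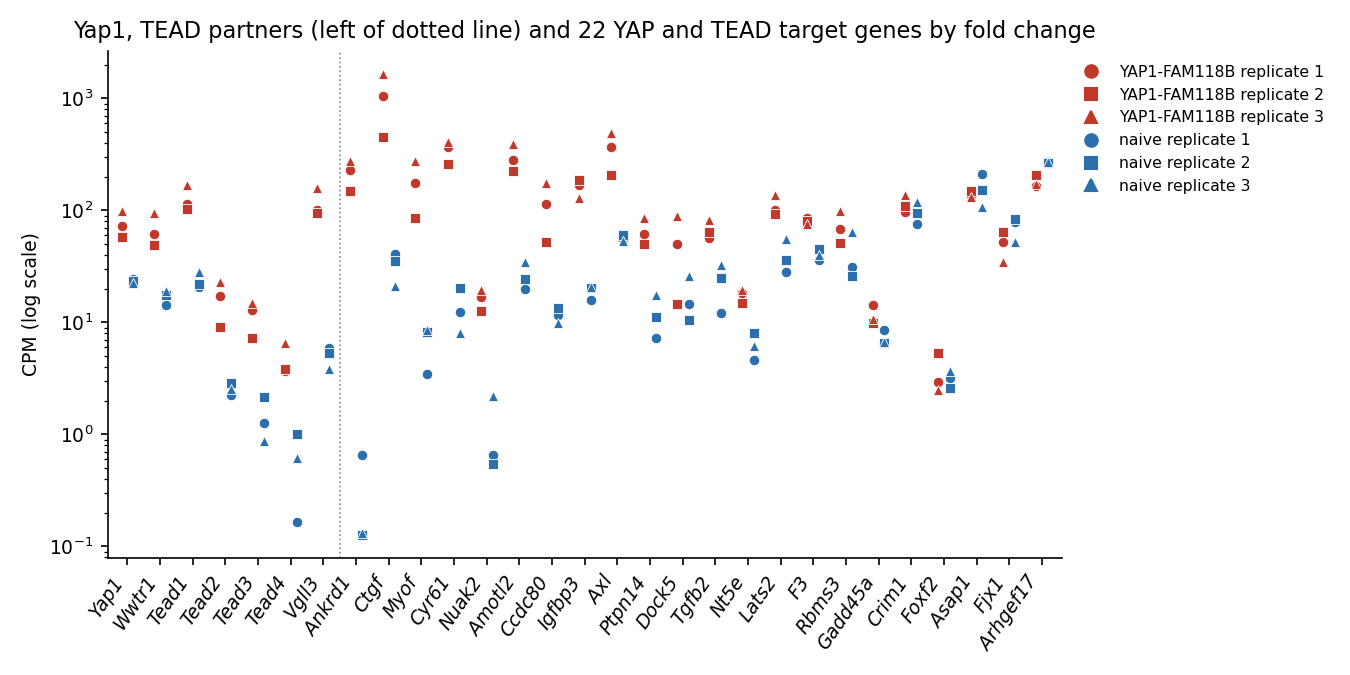
Level in CPM (vertical axis, log scale) of Yap1, its relative Wwtr1, the TEAD genes and Vgll3 (left of the dotted line) and of the 22 YAP and TEAD target genes in order of fold change, in each library. Red marks are the 3 YAP1-FAM118B libraries and blue marks the 3 naive libraries; groups are far apart for Ankrd1, Ctgf and Cyr61 and lie close together or overlap for targets at the right end, and levels of different genes cannot be compared because CPM is not corrected for length.

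Genes of cell division were raised to nearly the same level in all 3 tumours. Of 28 mitosis genes 27 were higher, all but Anln, with a median log2 fold change of 3.96. Their summed level was 618, 653 and 625 CPM in the tumours, against 117, 93.2 and 135 CPM in naive cortex. Of 33 DNA replication genes 26 were higher and none lower, with sums of 644, 631 and 655 CPM in the tumours, against 292, 299 and 286 CPM in naive cortex. For both lists the tumours did not overlap naive cortex, and their sums lay close together. Mki67, the proliferation antigen Ki-67, was at 65.4, 63 and 68.4 CPM in the tumours, against 3.20, 2.93 and 1.98 CPM in naive cortex. Top2a, the topoisomerase that untangles chromosomes, was at 74.3, 78.8 and 71.5 CPM in the tumours, against 3.37, 3.85 and 2.11 CPM in naive cortex. Both rose, by 4.60 ± 0.33 and 4.59 ± 0.29 in log2 units (edgeR adjusted p = 2.00e-05 and 1.26e-05). The mitotic kinase Cdk1 rose by 5.88, the helicase subunit Mcm3 by 3.06 and thymidine kinase Tk1 by 5.07 (edgeR adjusted p = 1.43e-05, 2.45e-05 and 1.64e-05).

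Both drivers and inhibitors of the G1 phase rose, 11 of 20 genes in all. Myc, the transcription factor of growth, was at 45.6, 34.3 and 59.2 CPM in the tumours, against 3.28, 4.06 and 3.25 CPM in naive cortex, a log2 fold change of 3.71 ± 0.26 (edgeR adjusted p = 1.61e-05). Cyclin D1 (Ccnd1) rose by 1.34, and its kinases Cdk4 and Cdk6 by 1.66 and 4.28 (edgeR adjusted p = 0.00223, 5.70e-05 and 2.58e-04). The inhibitor locus Cdkn2a was at 2.09, 3.06 and 2.44 CPM in the tumours, against 0.0821, 0.168 and 0.0880 CPM in naive cortex, and rose by 4.43 ± 0.41 (edgeR adjusted p = 5.88e-05). Its neighbour Cdkn2b rose by 4.39 and the p53-induced inhibitor Cdkn1a by 2.43 (edgeR adjusted p = 1.21e-05 and 5.79e-04). Of 12 p53 target genes 6 were higher. Ezh2, the methyltransferase of the Polycomb complex, was at 16.6, 18.6 and 20.4 CPM in the tumours, against 3.61, 3.69 and 4.27 CPM in naive cortex. It rose by 2.27 ± 0.13, and the DNA methylation factor Uhrf1 rose by 4.16 (edgeR adjusted p = 7.67e-06 and 2.18e-05).

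Ribosomal protein genes rose almost as a whole. Of 72 tested 69 were higher and none lower, with a median log2 fold change of 1.44, and only Rpl30, Rpl34 and Rps27 were not called. The count was 33 when tested against a 2-fold change. Summed levels were 22254, 16499 and 25093 CPM in the tumours, against 7324, 8165 and 7381 CPM in naive cortex. Replicate 2 was the lowest tumour, and the groups did not overlap. Rplp0, a protein of the ribosomal stalk, was at 1071, 671 and 1271 CPM in the tumours, against 148, 159.9 and 146 CPM in naive cortex (edgeR adjusted p = 4.43e-05). Eef1a1, the elongation factor that brings transfer RNA to the ribosome, was at 4808, 3985 and 5669 CPM in the tumours, against 1639, 1805 and 1795 CPM in naive cortex (edgeR adjusted p = 5.09e-04). Genes of this family have many near-identical copies in the genome, and how such reads were counted is not given in the sources used here.

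Genes of the extracellular matrix showed some of the largest increases, and the tumours differed in them. Of 20 collagen genes 19 were higher, with a median log2 fold change of 6.06, and Col8a2 was not called. Their sums were 23105, 8011 and 32246 CPM in the tumours, against 172, 258 and 235 CPM in naive cortex, so that replicate 2 stood at 28.9% of the mean of the other 2 tumours and still far above naive cortex. Col1a1, a chain of the main collagen of bone and connective tissue, was at 3626, 660.4 and 4971 CPM in the tumours, against 5.30, 12.9 and 14.7 CPM in naive cortex. Col3a1, of loose connective tissue, was at 3554, 165 and 3895 CPM in the tumours, against 6.16, 14.2 and 14.2 CPM in naive cortex. Col4a1, of basement membranes, was at 1227, 1047 and 1699 CPM in the tumours, against 30.7, 32 and 34 CPM in naive cortex. Replicate 2 was thus close to the other tumours for the basement membrane chain and under 0.1 times both for Col3a1. The log2 fold changes were 8.13 ± 1.04, 7.78 ± 1.16 and 5.36 ± 0.46 (edgeR adjusted p = 3.30e-04, 8.10e-04 and 4.19e-05).

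Among matrix glycoproteins and enzymes that shape collagen 19 of 22 genes rose and none fell. Fibronectin (Fn1) was at 3637, 1545 and 4962 CPM in the tumours, against 45.1, 70.8 and 66.5 CPM in naive cortex. Lysyl oxidase (Lox), which cross-links collagen, was at 1328, 585 and 1711 CPM in the tumours, against 1.23, 1.63 and 1.41 CPM in naive cortex. Both rose, by 5.80 ± 0.80 and 9.72 ± 1.36 in log2 units (edgeR adjusted p = 5.12e-04 and 5.55e-04), with no overlap of the groups. The collagen chaperone Serpinh1 rose by 5.51 (edgeR adjusted p = 1.61e-05). Decorin (Dcn) and lumican (Lum), proteoglycans of fibroblasts, were not called. Dcn was at 211, 13.1 and 215 CPM in the tumours, against 7.14, 37 and 22.6 CPM in naive cortex (edgeR adjusted p = 0.101). Without YAP1-FAM118B replicate 2 both passed the test (edgeR adjusted p = 0.0363 for Dcn and 0.0316 for Lum). With 1 other library left out, the edgeR adjusted p rose to as much as 0.241 for Dcn and 0.231 for Lum. Replicate 2 lay within the naive range for Dcn, while replicates 1 and 3 lay above it. Of 13 markers of meningeal fibroblasts 2 were higher, a share below the 21.3% of all genes tested. The count was 4 without YAP1-FAM118B replicate 2 and 1 without YAP1-FAM118B replicate 1 or any 1 naive library. Their summed level overlapped between the groups, at 1060, 674 and 791 CPM in the tumours and 636, 1312 and 1119 CPM in naive cortex.

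Of 26 matrix proteases and their inhibitors 20 were higher. The exceptions were Mmp24, a membrane-bound protease of neurons, and the inhibitor Timp4, which had log2 fold changes of −0.58 and −0.80 (edgeR adjusted p = 0.0284 and 0.0277). Both of these calls ended when YAP1-FAM118B replicate 1 or 3 or naive replicate 2 was left out. The call of Mmp24 also ended without naive replicate 1 and that of Timp4 without naive replicate 3, with edgeR adjusted p of at most 0.103 and 0.109. The gelatinase Mmp2 was at 457, 144 and 650 CPM in the tumours, against 4.27, 3.73 and 3.39 CPM in naive cortex (edgeR adjusted p = 4.09e-05). The membrane-bound collagenase Mmp14 rose by 5.17 ± 0.65 and the inhibitor Timp1 by 9.45 ± 1.27 (edgeR adjusted p = 3.04e-04 and 4.41e-04). In Mmp13, a collagenase of cartilage and bone, the tumours differed by over 100-fold, with 854, 7.64 and 1209 CPM in the tumours, against 0.0821, 0 and 0 CPM in naive cortex. Mmp9, a gelatinase of osteoclasts and other myeloid cells, was at 2280, 23.3 and 3426 CPM in the tumours, against 1.68, 1.63 and 2.20 CPM in naive cortex (edgeR adjusted p = 0.00291). For both, replicate 2 was under 0.1 times each of the other tumours and above every naive library.

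Genes of osteoclasts, the macrophage-derived cells that dissolve bone, were abundant in tumours 1 and 3 and low in tumour 2. Of 14 markers 11 were higher and none lower, with a median log2 fold change of 4.78. Their summed level was 7273, 292 and 10996 CPM in the tumours, against 182, 169 and 168 CPM in naive cortex, and replicate 2 held 3.19% of the mean of the other 2. The count was 12 without YAP1-FAM118B replicate 2, and 10 or 11 when any other library was left out. Acp5, the tartrate-resistant acid phosphatase, was at 2056, 22.8 and 2745 CPM in the tumours, against 0.369, 0.251 and 0.704 CPM in naive cortex. Cathepsin K (Ctsk), which digests bone collagen, was at 2138, 22.2 and 3699 CPM in the tumours, against 4.56, 5.28 and 3.34 CPM in naive cortex. Both rose, by 11.82 ± 1.75 and 8.79 ± 1.77 in log2 units (edgeR adjusted p = 8.02e-04 and 0.00460). Replicate 2 lay above every naive library for both, but nearer to them than to the other tumours on a linear scale.

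Atp6v0d2, a proton pump subunit of osteoclasts, was at 99.5, 1.59 and 184 CPM in the tumours, against 0.0411, 0.0419 and 0 CPM in naive cortex, a ratio of 3274 (95% counting interval 906 to 27040). Ocstamp, needed for the fusion of osteoclast precursors, was at 29.8, 1.05 and 51.2 CPM in the tumours, against 0, 0.0419 and 0 CPM in naive cortex, a ratio of 1889 (95% counting interval 339 to 74640). The master factor Nfatc1 was at 111, 16.6 and 169 CPM in the tumours, against 4.68, 6.62 and 5.63 CPM in naive cortex (edgeR adjusted p = 0.00133). All 3 had the same order of tumours, with replicate 3 the highest and replicate 2 the lowest. The 3 markers not called were the calcitonin receptor Calcr, Clcn7 and Ostm1, of which Clcn7 passed without YAP1-FAM118B replicate 2 (edgeR adjusted p = 0.0375). With 1 other library left out, the edgeR adjusted p of Clcn7 rose to as much as 0.257. Calcr was at 1.60, 0.168 and 7.93 CPM in the tumours, against 6.16, 3.06 and 12.7 CPM in naive cortex, and the groups overlapped.

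Csf1 and Tnfsf11, genes of factors known to act on osteoclasts, were also higher. Their part in the level of the osteoclast genes was not tested. Csf1, the growth factor of macrophages and osteoclasts, was at 349.8, 239.9 and 463 CPM in the tumours, against 25.3, 23 and 33.5 CPM in naive cortex (edgeR adjusted p = 1.72e-04). Tnfsf11, which encodes the osteoclast differentiation factor RANKL, was at 3.94, 0.420 and 6.74 CPM in the tumours, against 0, 0 and 0.0440 CPM in naive cortex, a ratio of 256 (95% counting interval 45.5 to 10150). Csf1 was high in all 3 tumours, whereas Tnfsf11 was low in replicate 2. Of 9 tested markers of osteoblasts and bone matrix 3 were higher, namely Tnfsf11, Runx2 and Spp1, beside 21.3% of all genes tested. In 8 of the 9 the log2 fold change was above 0. In 5 every tumour was above every naive library, as in 29.7% of all genes tested. The bone genes Ibsp, Bglap2, Bglap and Mepe did not pass the count filter and were not tested. The osteoblast factor Runx2 rose by 1.63 ± 0.39 (edgeR adjusted p = 0.0117). Osteopontin (Spp1), also made by macrophages, was at 2371, 648 and 2845 CPM in the tumours, against 7.72, 12.7 and 24.2 CPM in naive cortex (edgeR adjusted p = 0.0117, or 0.0522 without naive replicate 1). Sp7, the osteoblast factor osterix, was at 2.46, 2.60 and 3.18 CPM in the tumours, against 0.903, 1.0 and 2.20 CPM in naive cortex, and was not called (edgeR adjusted p = 0.360).

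**Figure D3:**
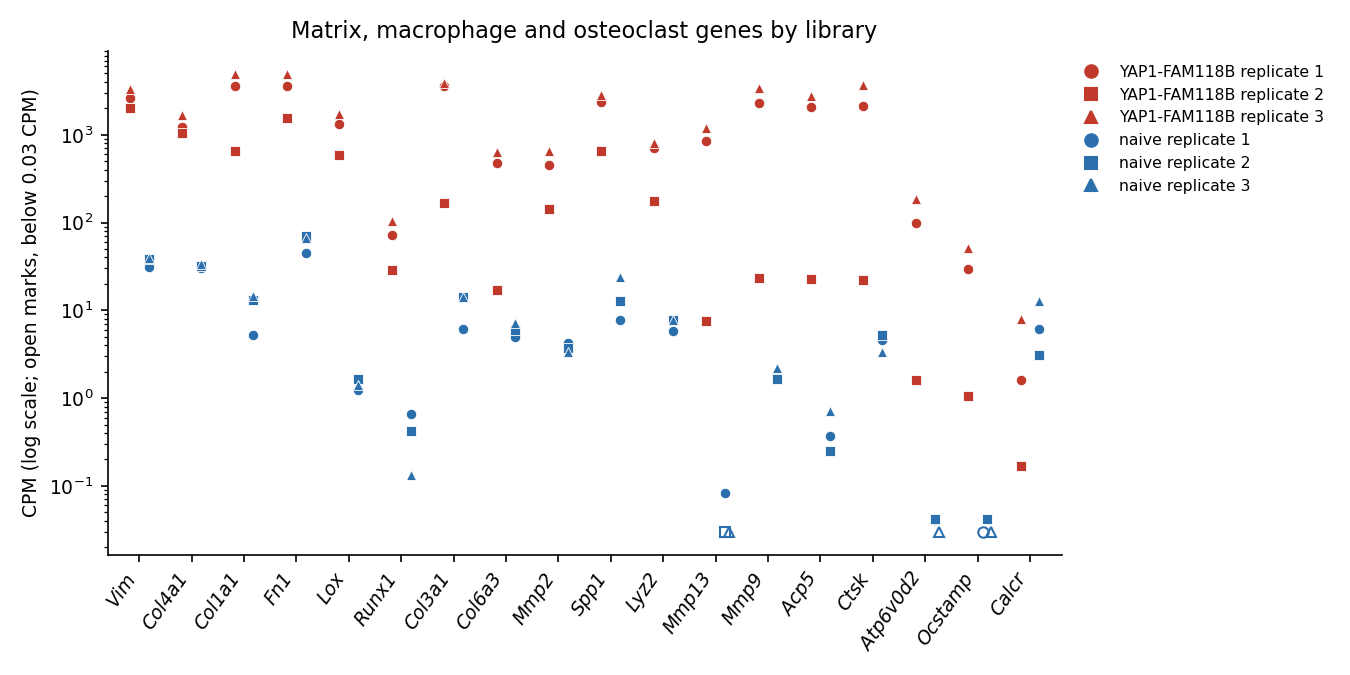
Level in CPM (vertical axis, log scale) of matrix, macrophage and osteoclast genes in each library, with levels under 0.03 CPM drawn as open marks at the foot of the axis. Red marks are the YAP1-FAM118B libraries and blue marks the naive libraries; the 3 tumours lie close together for Vim and Col4a1, replicate 2 (red square) falls away for Col3a1, Mmp13, Acp5 and Ctsk, and the groups overlap for Calcr.

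Transcription factors of mesenchyme and of the neural crest rose in part. Of 15 mesenchymal factors 8 were higher, and 5 were when YAP1-FAM118B replicate 3, naive replicate 1 or naive replicate 3 was left out. Runx1, a factor of blood and mesenchymal cells, was at 73, 28.6 and 104 CPM in the tumours, against 0.657, 0.419 and 0.132 CPM in naive cortex, a log2 fold change of 7.38 ± 0.62 (edgeR adjusted p = 3.86e-05). Snai1, a driver of the epithelial to mesenchymal transition, rose by 5.80 and Prrx1, of limb and skull mesenchyme, by 3.05 (edgeR adjusted p = 4.25e-04 and 0.0123). Twist1, a factor of the same transition, was at 6.16, 0.630 and 7.93 CPM in the tumours, against 0.821, 1.13 and 0.924 CPM in naive cortex. Replicate 2 lay below the naive libraries, and the gene was not called (edgeR adjusted p = 0.0612). It passed without YAP1-FAM118B replicate 2 (edgeR adjusted p = 0.00843) and without both replicates 2 (edgeR adjusted p = 0.0272). With 1 other library left out, its edgeR adjusted p rose to as much as 0.2095.

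Neural crest is the embryonic source of facial bone, Schwann cells and pigment cells. Of 12 of its markers 7 were higher, and 4 were without YAP1-FAM118B replicate 3, naive replicate 1 or naive replicate 2. Foxd3, an early crest factor, was at 19, 13.6 and 37.8 CPM in the tumours and had no count in any naive library, which makes it at least 544-fold higher, taking 3 counts for the naive group as the floor. Pax3 was at 7.43, 6.55 and 13.8 CPM in the tumours, against 0, 0 and 0.176 CPM in naive cortex. Tfap2a was at 9.08, 8.44 and 10.7 CPM in the tumours, against 0.164, 0.126 and 0.220 CPM in naive cortex. The edgeR adjusted p was 0.00169 for Foxd3, 0.00589 for Pax3 and 0.00788 for Tfap2a. All 3 factors were present in each tumour, replicate 2 included. Ets1 rose by 2.90 ± 0.24 (edgeR adjusted p = 3.59e-05), and the crest factors Msx1, Msx2 and Tfap2b were not called.

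Signals and receptors of the TGF-beta and BMP families rose in 16 of 23 cases and fell in none. The ligand Tgfb1 was at 89.2, 30.4 and 96.7 CPM in the tumours, against 4.11, 3.02 and 2.82 CPM in naive cortex. Its receptor Tgfbr2 was at 262, 163 and 346 CPM in the tumours, against 18.1, 19.9 and 25 CPM in naive cortex. Both rose, by 4.44 ± 0.47 and 3.61 ± 0.30 in log2 units (edgeR adjusted p = 1.20e-04 and 3.59e-05), and replicate 2 was the lowest tumour for each. The induced matrix protein Tgfbi rose by 5.43 and the activin inhibitor follistatin (Fst) by 5.38 (edgeR adjusted p = 3.34e-05 and 1.72e-04). Of 28 integrin and focal adhesion genes 22 were higher. The fibronectin receptor chain Itga5 rose by 5.34, its partner Itgb1 by 2.92, the actin cross-linker Flna by 3.59 and caveolin Cav1 by 4.57 (edgeR adjusted p = 4.43e-05, 1.15e-04, 1.40e-04 and 0.00322). DESeq2, the fit without YAP1-FAM118B replicate 2 and the fit without both replicates 2 each called 1 adhesion gene lower.

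Cd44, a receptor of hyaluronan, was at 190.4, 125 and 233 CPM in the tumours, against 6.16, 6.58 and 7.08 CPM in naive cortex, and Has2, which makes hyaluronan, rose by 5.47 ± 0.72 (edgeR adjusted p = 1.51e-05 and 3.85e-04). Igfbp2, which binds insulin-like growth factors, was at 1379, 1106 and 2048 CPM in the tumours, against 26.2, 40.7 and 53.3 CPM in naive cortex (edgeR adjusted p = 3.63e-04). The imprinted RNA H19 rose by 5.44 and the RNA-binding protein Igf2bp2 by 5.63 (edgeR adjusted p = 4.99e-05 and 4.28e-04). The groups did not overlap for any of these genes. In the Notch pathway 9 of 20 genes were higher, among them the ligand Jag1 by 4.24 ± 0.43, the receptor Notch2 by 1.15 ± 0.25 and the target Hes1 by 1.42 ± 0.27 (edgeR adjusted p = 9.95e-05, 0.00730 and 0.00309). The fit of only the 6 libraries compared called 3 further Notch pathway genes lower.

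Myeloid genes rose in 2 patterns. Of 12 markers of resting microglia, the macrophages resident in brain, 7 were higher, and 5 were when any 1 library was left out, or 4 without both replicates 2. Their sums were 1845, 1822 and 2034 CPM in the tumours, against 393, 420.3 and 338 CPM in naive cortex, close together within each group. Tmem119 was at 124, 102 and 135 CPM in the tumours, against 18.2, 19.7 and 17.8 CPM in naive cortex (edgeR adjusted p = 0.00203). Csf1r, the receptor of Csf1, rose by 2.81 ± 0.49 (edgeR adjusted p = 0.00216). P2ry12, a purine receptor of resting microglia, and the factor Sall1 were not called. Of 18 tested genes of monocytes and macrophages 16 were higher. The count was 11 without YAP1-FAM118B replicate 1 or 3 or any 1 naive library. It was 14 without YAP1-FAM118B replicate 2 and 13 without both replicates 2. Sums of this list were 1860, 491 and 1927 CPM in the tumours, against 38.2, 58.2 and 44.5 CPM in naive cortex. Lysozyme (Lyz2) was at 715, 176 and 803 CPM in the tumours, against 5.87, 7.67 and 7.79 CPM in naive cortex (edgeR adjusted p = 1.21e-04). The phagosome protein Cd68 was at 161, 47.6 and 193 CPM in the tumours, against 5.17, 5.86 and 4.0 CPM in naive cortex (edgeR adjusted p = 1.49e-04). Tumour 2 was thus level with the others for microglia genes and at 25.9% of their mean for macrophage genes. In bulk samples more cells of a type and more RNA per cell cannot be told apart, and this holds for every cell type list here.

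Complement and antigen presentation rose in nearly every member. Of 14 complement genes 13 were higher. C1qa, a subunit of the first complement component, was at 616, 562 and 542 CPM in the tumours, against 33.7, 42.7 and 33.8 CPM in naive cortex (edgeR adjusted p = 1.20e-04). Of 13 tested genes of MHC class I presentation 12 rose, and of 10 of class II 9 rose. The class II count was 6 or 7 when any 1 library was left out, and 6 without both replicates 2. For class I the counts were 11 and 9. The class I light chain B2m was at 674, 538 and 506 CPM in the tumours, against 42.2, 45 and 47 CPM in naive cortex. The class II chain H2-Aa was at 475, 161 and 406 CPM in the tumours, against 1.07, 3.06 and 1.67 CPM in naive cortex. Both rose, by 3.68 ± 0.40 and 7.48 ± 1.61 (edgeR adjusted p = 1.40e-04 and 0.00671). Replicate 2 was the lowest tumour for H2-Aa and lay between the others for B2m. Class I heavy chain genes are near-identical in sequence, so reads may be split between them.

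Interferon response genes were higher in 20 of 24 cases, and here tumour 3 was the low one. Sums were 987, 972 and 445 CPM in the tumours, against 181, 179 and 202 CPM in naive cortex. Isg15, a ubiquitin-like protein, was at 25.3, 27.5 and 9.83 CPM in the tumours, against 1.03, 1.84 and 2.07 CPM in naive cortex (edgeR adjusted p = 0.00257). Zbp1, a sensor of foreign nucleic acid, was at 34, 34.3 and 15 CPM in the tumours, against 0.0821, 0.251 and 0.132 CPM in naive cortex (edgeR adjusted p = 0.00250). All tumours were above naive cortex for both, and replicate 3 was under 0.5 times the other tumours. The count of 20 was 12 without YAP1-FAM118B replicate 1, 13 without naive replicate 1, 12 without naive replicate 2 or naive replicate 3, and 6 without both replicates 2.

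Of 27 chemokines and receptors 19 were higher, and of 13 tested cytokines 9. Lif, a cytokine of the interleukin 6 family that acts through STAT3, was at 74.4, 58.9 and 80.9 CPM in the tumours, against 0.246, 0.628 and 0.528 CPM in naive cortex. It rose by 7.24 ± 0.41 (edgeR adjusted p = 7.67e-06) and was even across the tumours. Il6 was at 12.5, 6.38 and 16.1 CPM in the tumours and had no naive count, so that it was at least 273-fold higher (edgeR adjusted p = 0.00203). Socs3, a feedback inhibitor that STAT3 induces, was at 134, 128 and 174 CPM in the tumours, against 3.20, 3.48 and 2.24 CPM in naive cortex, and rose by 5.61 ± 0.21 (edgeR adjusted p = 1.40e-06). The groups were far apart. Lep, the fat hormone leptin, was at 63.5, 74.2 and 175 CPM in the tumours, against 0.0411, 0 and 0.0440 CPM in naive cortex, a ratio of 3610 (95% counting interval 999 to 29810). Cxcl13, which attracts B cells, was at 122, 261 and 115 CPM in the tumours, against 0.410, 0 and 0.572 CPM in naive cortex (edgeR adjusted p = 2.05e-04). Replicate 2 was the highest tumour for Cxcl13 and replicate 3 for Lep. Of 17 T and NK cell genes 3 were higher, a share near the 21.3% of all genes tested, with sums of 43.6, 37 and 26.3 CPM in the tumours, against 14.7, 13.8 and 11.2 CPM in naive cortex. That count was 1 without YAP1-FAM118B replicate 1 or naive replicate 1, and 9 with DESeq2.

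**Figure D4:**
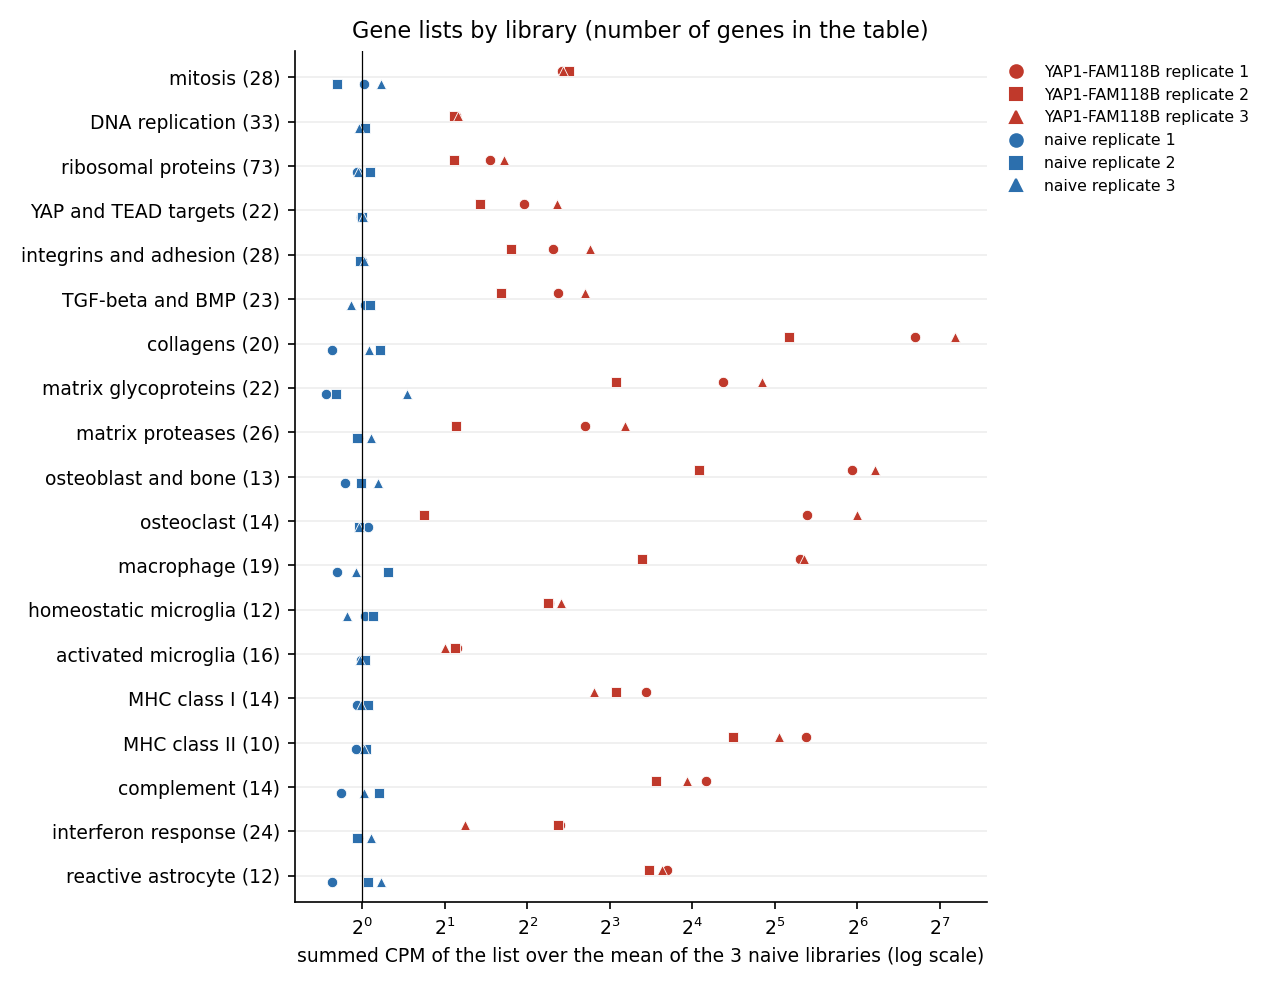
Summed CPM of each gene list in each library, divided by the mean of the 3 naive libraries (horizontal axis, log scale), with the number of genes in the table in parentheses. Red marks are the YAP1-FAM118B libraries and blue marks the naive libraries; the tumours lie close together for mitosis, DNA replication and microglia genes, replicate 2 (square) is lowest for matrix, osteoclast and macrophage genes, and replicate 3 (triangle) is lowest for interferon genes.

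Of the intermediate filament genes of glia and progenitors, Vim and Nes rose and Gfap was not called. Vimentin (Vim) was at 2633, 2039 and 3339 CPM in the tumours, against 30.8, 38.9 and 39.7 CPM in naive cortex. Nestin (Nes), a filament of neural progenitors, was at 196, 185 and 206 CPM in the tumours, against 11.4, 10.5 and 15.2 CPM in naive cortex. These rose by 6.19 ± 0.31 and 3.98 ± 0.18 in log2 units (edgeR adjusted p = 3.80e-06 and 2.09e-06), with the tumours close together and far from naive cortex. Of 12 genes of reactive astrocytes 9 were higher (Gfap, Hspb1 and Aspg were not called), such as the protease inhibitor Serpina3n by 3.80 ± 0.52 (edgeR adjusted p = 4.98e-04). Gfap, the filament of astrocytes, was at 893, 884 and 71 CPM in the tumours, against 175, 250.2 and 280 CPM in naive cortex. Tumours 1 and 2 were above the naive range and tumour 3 below it, and the gene was not called (edgeR adjusted p = 0.254). Of 13 neural stem cell genes only Nes and Hes1 were higher, a share below the 21.3% of all genes tested. The median log2 fold change of that list was −0.52. Without YAP1-FAM118B replicate 2 or without both replicates 2, 1 of these genes was lower. Of 15 astrocyte genes none was higher and 1, the calcium-binding S100b, was lower, though not without YAP1-FAM118B replicate 3 or naive replicate 3. The fit of only the 6 libraries compared called 8 astrocyte genes lower, and DESeq2 2. Their sums were 5000, 6012 and 3047 CPM in the tumours, against 6948, 6982 and 6073 CPM in naive cortex, with every tumour below every naive library.

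Among the vascular lists, that of pericytes and smooth muscle rose in part. Smooth muscle actin (Acta2) was at 423, 434 and 526 CPM in the tumours, against 11, 17.6 and 14.7 CPM in naive cortex (edgeR adjusted p = 0.00263). The pericyte receptor Pdgfrb rose by 3.44 ± 0.42 (edgeR adjusted p = 2.70e-04). The smooth muscle myosin Myh11 was at 5.71, 9.15 and 5.17 CPM in the tumours, against 7.59, 12.9 and 15 CPM in naive cortex, and was not called (edgeR adjusted p = 0.324). Of 16 pericyte and smooth muscle genes 7 were higher and 9 were not called. Those not called included Myh11 and the pericyte markers Rgs5, Abcc9, Kcnj8 and Vtn. Of 19 endothelial genes 3 were higher and 1 lower, shares not above the 21.3% and 8.45% of all genes tested. Only 1 was higher without YAP1-FAM118B replicate 1 or naive replicate 1, and the lower one, Ocln, lost its call without YAP1-FAM118B replicate 1 or naive replicate 3. Without YAP1-FAM118B replicate 2, 2 were lower. Angpt2, a factor of vessel remodelling, kept its call without any 1 library and was at 14.9, 17.6 and 16.1 CPM in the tumours, against 1.31, 1.76 and 3.34 CPM in naive cortex (edgeR adjusted p = 8.48e-04).

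Of 20 glycolysis genes 4 were higher, a share near the 21.3% of all genes tested, and 1, Hk1, was lower, though not without YAP1-FAM118B replicate 1 or 3, naive replicate 1 or 2, or both replicates 2. Without YAP1-FAM118B replicate 2, 3 were lower, and the count was 3 in DESeq2 and 5 in the fit of only the 6 libraries compared. The groups overlapped in their sums, which were 9385, 8948 and 8386 CPM in the tumours and 9374, 9250 and 8441 CPM in naive cortex. Hexokinase 2 (Hk2) was at 69.7, 53.2 and 60.8 CPM in the tumours, against 4.39, 3.81 and 3.87 CPM in naive cortex, and rose by 3.92 ± 0.17 (edgeR adjusted p = 1.40e-06). The lactate exporter Slc16a3 rose by 5.21 and lactate dehydrogenase Ldha by 1.38 (edgeR adjusted p = 3.00e-04 and 0.00370). Of 20 hypoxia response genes 11 were higher, among them carbonic anhydrase 9 (Car9) by 4.61 ± 0.56 and the vessel growth factor Vegfa by 1.59 ± 0.32 (edgeR adjusted p = 2.42e-04 and 0.00456). The mitochondrial Higd1a was the one lower member, and was no longer called without naive replicate 1 or without both replicates 2 (edgeR adjusted p = 0.0146, 0.0844 and 0.0887 in the 3 fits). The count of lower members was 2 without YAP1-FAM118B replicate 2. The mitochondrial folate enzyme Mthfd2 rose by 2.54 ± 0.32 and the stress pseudokinase Trib3 by 6.83 ± 0.58 (edgeR adjusted p = 2.97e-04 and 3.95e-05).

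Genes of cholesterol synthesis were lower. Of 21 genes of cholesterol handling 10 were lower and 1, the exporter Abca1, was higher, with a median log2 fold change of −0.61. Their sums were 1402, 1378 and 1340 CPM in the tumours, against 2073, 1806 and 2037 CPM in naive cortex, without overlap and with close values among the tumours. The enzymes Msmo1 and Sc5d of the later steps fell, with log2 fold changes of −0.98 and −0.60 (edgeR adjusted p = 0.00420 and 0.00371). The count of lower genes was 4 without YAP1-FAM118B replicate 3 or naive replicate 1, 5 without naive replicate 3 and 6 without YAP1-FAM118B replicate 1 or without both replicates 2. The call of Abca1 ended without YAP1-FAM118B replicate 3, naive replicate 1, naive replicate 2 or both replicates 2. Of 26 oxidative phosphorylation genes 7 were lower and none higher. This count depended on the scaling and the tool, with 15 under RLE factors, 12 under upper-quartile factors and 21 in DESeq2. It was 0 without naive replicate 1, 1 without YAP1-FAM118B replicate 3, 3 without YAP1-FAM118B replicate 1 or naive replicate 3, and 2 without naive replicate 2 or without both replicates 2. The summed level of myelin genes was also below naive cortex in all 3 tumours, and its part in these decreases was not tested.

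Neuronal genes had median log2 fold changes between −1 and 0, and no synaptic gene passed the test in the fit of all 12 libraries. Of 17 synaptic vesicle genes, 16 postsynaptic genes and 16 ion channel genes none was called, with median log2 fold changes of −0.91, −0.80 and −0.95. Vesicle genes summed to 7377, 9302 and 6035 CPM in the tumours, against 16639, 14172 and 11892 CPM in naive cortex. All 3 tumours lay below all naive libraries, and replicate 2 was the highest tumour. In these lists 15, 12 and 14 genes were lower in every tumour than in any naive library, where 27.1% of all genes tested were, and 29.7% were higher in every tumour. Snap25, a protein of vesicle fusion, was at 1422, 1723 and 1318 CPM in the tumours, against 3388, 2556 and 2102 CPM in naive cortex. Its log2 fold change was −0.85 ± 1.17 in the fit of all 12 libraries (edgeR adjusted p = 0.597). In the fit of only the 6 libraries compared it was −0.83 (edgeR adjusted p = 0.0235), and that fit called 15 vesicle, 12 postsynaptic and 14 ion channel genes lower. DESeq2 on all libraries called 2, 0 and 1. The 6-library fit takes the spread from these groups alone and the main one from all 4 groups of the series.

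Lists of regional genes differed among the libraries of both groups. Of 14 cortical projection neuron genes none was called, and 3 were lower in the fit of only the 6 libraries compared. Slc17a7, the vesicular glutamate transporter of cortex, was at 678, 863 and 563 CPM in the tumours, against 1627, 1375 and 708 CPM in naive cortex (edgeR adjusted p = 0.736). Naive replicate 3 lay within the range of the tumours. Striatal genes summed to 649, 1769 and 138 CPM in the tumours and 647, 875 and 298 CPM in naive cortex. Tumour 2 was highest and tumour 3 lowest of all 6 libraries, and none of 9 genes was called. Hypothalamic genes had the lowest median of all the lists, with 9 of 15 lower and a median log2 fold change of −4.50. Their sums were 22, 26.9 and 5.81 CPM in the tumours, against 148, 143 and 416 CPM in naive cortex. Pmch, the precursor of melanin-concentrating hormone, was at 0.616, 0.840 and 0.877 CPM in the tumours, against 12, 28.6 and 147 CPM in naive cortex. Pomc, the precursor of melanocortin peptides, was at 1.52, 1.34 and 0.369 CPM in the tumours, against 16.4, 7.79 and 8.27 CPM in naive cortex. Both fell, with log2 fold changes of −6.32 ± 1.28 and −3.32 ± 0.55 (edgeR adjusted p = 0.00486 and 0.00162). Naive replicate 3 held the most Pmch, while naive replicate 1 held the most Pomc. The count of lower hypothalamic genes was 3 without YAP1-FAM118B replicate 1 or 3, 5 without naive replicate 3 and 3 without both replicates 2. What part the dissection of the naive samples had in these decreases was not tested.

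Myelin genes had a median log2 fold change of −1.36, and 4 of 14 were lower. Their sums were 3431, 5005 and 2157 CPM in the tumours, against 8306, 6006 and 12066 CPM in naive cortex, with tumour 3 the lowest and naive replicate 3 the highest. Mbp, myelin basic protein, was at 1020, 1589 and 645 CPM in the tumours, against 2583, 1826 and 3737 CPM in naive cortex, and was not called (edgeR adjusted p = 0.0870). The count of lower myelin genes was 0 without naive replicate 3, 1 without YAP1-FAM118B replicate 1, YAP1-FAM118B replicate 3 or naive replicate 1, and 2 without naive replicate 2. DESeq2 called 9 and the fit of only the 6 libraries compared 10. Choroid plexus genes, whose naive sums ran between 20.1 and 1779 CPM, had no called member among 10. Without naive replicate 3, which held the highest of these sums, 1 was called higher, while DESeq2 and the fit of only the 6 libraries compared each called 1 lower. Motile cilia genes had 2 lower among 15, and 0 without YAP1-FAM118B replicate 1 or 3 or naive replicate 1 or 3, or 1 without naive replicate 2. DESeq2 called 6 of them lower, the fit of only the 6 libraries compared 9 and scaling by RLE factors 4, and without naive replicate 3, 1 was higher.

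**Figure D5:**
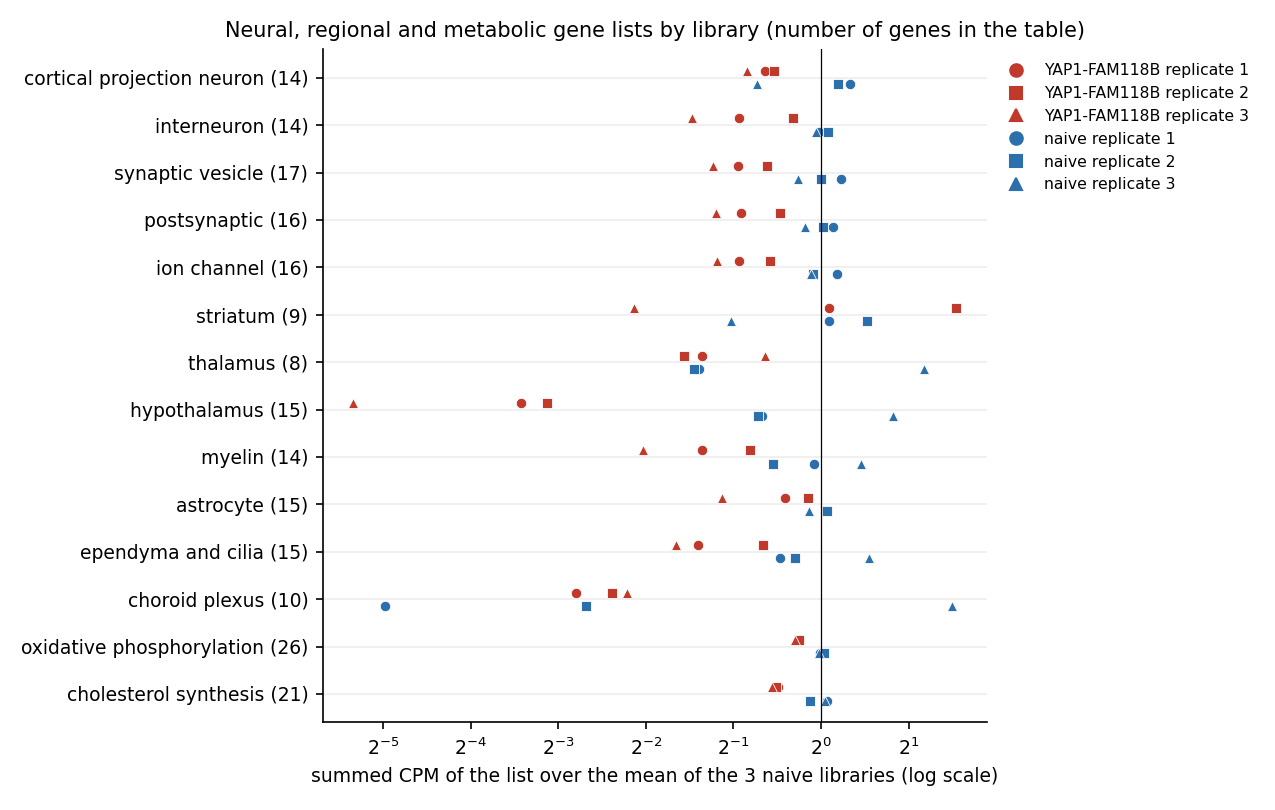
Summed CPM of neural, regional and metabolic gene lists in each library, divided by the mean of the 3 naive libraries (horizontal axis, log scale), with the number of genes in the table in parentheses. Red marks are the YAP1-FAM118B libraries and blue marks the naive libraries; the tumours lie left of naive cortex for synaptic, hypothalamic, myelin and cholesterol genes, and naive replicate 3 (blue triangle) stands apart for thalamus, hypothalamus and choroid plexus genes.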

How the data were processed

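The authors deposited whole-number counts of reads for each gene symbol. The submitters' processing notes name HTSeq and build mm10. Aligner, annotation, strand setting and filters are not stated in these sources, so reads of near-identical copies and of antisense neighbours cannot be told apart. Counts of all 12 libraries (4 groups of 3) were fitted with edgeR 4.0.16 (R 4.3.3, limma 3.58.1) after filterByExpr at a minimum count of 10 and TMM scaling. The contrast was YAP1-FAM118B minus naive by the quasi-likelihood test, with Benjamini-Hochberg adjustment over 16364 genes and a threshold of 0.05. Errors of log2 fold changes are standard errors derived from the F statistic. CPM uses TMM-scaled library sizes, and sums over lists add CPM. Ratios against 1 to 3 naive counts carry 95% intervals, and those and the floor of 3 counts cover counting error only. Alternatives used DESeq2 1.42.0, other scalings and filters, and libraries left out, and the scripts were tested on simulated data. The members and gene lists were chosen with earlier results of these data known. Named genes are the fusion genes, key members and the strongest calls of each list, and genes of the largest changes. Others, among them all other genes given as not called and genes such as Lox, Socs3, Notch2 and Tead2, were named after their values were seen. Some genes are not reported here.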

Additional observations from a re-analysis of the deposited data

How the results depend on the processing

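The number of called genes stayed within 1.5 times that of the main test under the other scalings, filters, robust dispersion and the replicate block, while the lower calls moved most. DESeq2 called 2898 genes lower, and the fit of only the 6 libraries compared called 2916. Tested against a 2-fold change, 1639 genes remained above the threshold, 1601 higher and 38 lower. With 1 library left out the total ranged from 2979 to 5475, the higher calls from 2623 to 3625 and the lower calls from 356 to 1850. No pairing by replicate number was seen in the correlations of the libraries' deviations from their group means. These were −0.11, −0.04 and 0.03 for same-numbered libraries and ran from −0.05 to 0.09 for the others. With 3 libraries per group such values cannot show whether the numbers mark a shared batch. With the replicate block 4717 genes were called, 3365 higher and 1352 lower, of which 4401 were shared with the main calls. Causes of these changes were not tested. With 3 libraries per group, a low count of calls among neural genes does not show that they did not differ. Of the named genes, 8 that were not called changed sign in some setting, and none of them was called there with the other sign. With 1 library left out the log2 fold change ran from −0.37 to 0.21 for Anln, −0.39 to 0.17 for Asap1, −0.23 to 1.28 for Col8a2, −0.21 to 0.39 for Foxf2 and −0.0888 to 0.0923 for Ostm1. It ran from −0.15 to 0.42 for P2ry12, −0.23 to 0.13 for Rps27 and −1.19 to 0.43 for Sall1. With the replicate block Col8a2 was at −0.13, and without both replicates 2 Foxf2 was at −0.33. Ostm1 was at 0.0047 with library size only, 0.0094 with no filter, 0.0369 with the 1 CPM filter and 0.0084 in the 6-library fit, and Rps27 at 0.0161 with the 1 CPM filter.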

Other observations

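Genes of lysosomes and of immune checkpoints were also higher in the tumours. Of 21 lysosome genes 13 were higher and 2 lower. The protease cathepsin D (Ctsd) was at 1332, 1723 and 989 CPM in the tumours, against 399.5, 381 and 412 CPM in naive cortex, and rose by 1.76 ± 0.23 in log2 units (edgeR adjusted p = 3.87e-04). The lower ones were the proton pump subunit Atp6v0d1 and the glycogen-degrading enzyme Gaa. The lower count was 1 without YAP1-FAM118B replicate 1, YAP1-FAM118B replicate 3 or naive replicate 1. Of 13 checkpoint genes 8 were higher. Lag3, an inhibitory receptor that microglia also express, was at 38.6, 39.9 and 27.5 CPM in the tumours, against 4.60, 6.33 and 3.21 CPM in naive cortex (edgeR adjusted p = 0.00199).

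Of 17 PDGF, FGF, HGF and KIT genes 4 were higher and 1, Fgf1, was lower. In the EGF receptor family 2 of 12 tested genes were higher and 1, Erbb4, was lower. These shares were near the 21.3% higher and 8.45% lower of all genes tested. Egfr, Ereg, Hgf and Pdgfa were not called. No lower member remained in these lists without YAP1-FAM118B replicate 1. Met, the receptor of hepatocyte growth factor, was at 91.7, 76 and 109.8 CPM in the tumours, against 18.1, 11.8 and 7.35 CPM in naive cortex. The EGF receptor ligand Hbegf was at 51.8, 52.2 and 36.5 CPM in the tumours, against 11.5, 12.1 and 14.9 CPM in naive cortex. Both rose (edgeR adjusted p = 0.00404 and 0.00464), and the groups did not overlap. No member was called among 5 epithelial, 8 dendritic cell and 5 B cell genes in the main test, where DESeq2 called 1, 2 and 1 higher. Without YAP1-FAM118B replicate 2, 2 epithelial and 1 B cell genes were called higher, and without both replicates 2, 1 and 1. Without naive replicate 2, 1 B cell gene was called higher. Gzme, a granzyme of cytotoxic cells, was at 42.1, 0.252 and 46.3 CPM in the tumours, against no count in naive cortex (edgeR adjusted p = 0.0108). Replicate 2 was far below the other tumours.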
